A study of Homo sapiens with 12 samples.

Results

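The nuclear respiratory chain genes comprise the protein-coding genes of the oxidative phosphorylation complexes whose symbols begin with NDUF (complex I), SDH (complex II, SDHA to SDHD), UQCR (complex III), COX followed by a digit (complex IV) or ATP5 (complex V). Pseudogenes and genes of the mitochondrial genome were left out. The rule used symbols and no measured value, and it found 107 genes of 63677 in the count tables, 19376 of which are protein-coding. They comprise 45 genes of complex I (7 core subunits, 30 accessory subunits and 8 assembly factors), 4 of complex II, 9 of complex III, 28 of complex IV (18 subunits, tissue-type isoforms included, and 10 assembly factors), 19 of complex V (5 of the F1 part, 13 of the membrane-bound Fo part and 1 regulator) and 2 readthrough genes.

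The respiratory chain sits in the inner mitochondrial membrane. Complexes I and II pass electrons from NADH and succinate to ubiquinone, complex III passes them to cytochrome c, and complex IV passes them to oxygen. Complexes I, III and IV pump protons, and complex V, the ATP synthase, uses the proton gradient to make ATP. Each complex except complex II mixes subunits made from nuclear genes with a few made from mitochondrial DNA, and further nuclear genes encode factors that assemble the complexes.

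The cells were SET-2, a human line of acute myeloid leukaemia, in 4 groups of 3 libraries. WT cells had wild-type LSD1, a histone demethylase encoded by KDM1A. The insR cells carried LSD1 with an arginine inserted between leucine 659 and asparagine 660 (Leu659_Asn660insArg) and are labelled drug-resistant. For 48 h, both genotypes were kept in 250 nM of the LSD1 inhibitor GSK-LSD1 or in DMSO at 0.1% (v/v), in medium with serum. The groups were WT GSK-LSD1, WT DMSO, insR GSK-LSD1 and insR DMSO, and the labels used here do not say whether the insR cells are 1 clone. Nothing in the labels says that the 3 libraries of a group came from different cultures, so every p-value rests on a spread that may be technical.

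Libraries held 4837096 to 10141155 reads in genes, of which the 107 genes took 1.71% to 2.14%. Of the 107 genes, 99 passed the filter on low counts and were tested. COX4I2, COX6A2, COX7A1, COX7B2, COX8C and NDUFC2-KCTD14 had 0 counts in all 12 libraries, which allows up to 0.296 to 0.62 CPM by library, for counting error only (CPM being the reads of a gene scaled to the library total). NDUFA4L2 and ATP5MF-PTCD1 were too low to test. The kit reads the 3′ ends of polyadenylated RNA, so a CPM is not set per transcript length and levels are compared within a gene, not between genes. Reads of UQCRH and UQCRHL, and of ATP5MG and ATP5MGL, may be split between near-identical copies, which makes the value of each uncertain. Reads matching several places went to no gene, so other genes with close copies or pseudogenes may also read too low. Of the 6 markers of the haematopoietic line, GATA1 was the lowest and still reached 39.9 CPM or more in every library, and the endothelial marker PECAM1 was at 0. Of the 4 megakaryocyte markers, ITGA2B was at 660 CPM or more and GP9 at 1.89 CPM or more in every library, VWF was near 0 and PF4 was at 0. KDM1A was at 217 ± 3.02 CPM in WT GSK-LSD1 and 265 ± 26.5 CPM in WT DMSO, and at 106 ± 4.56 CPM in insR GSK-LSD1 and 109 ± 2.18 CPM in insR DMSO (SD, n = 3 each). Gene counts do not show the insertion.

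The first comparison asked how these genes respond to GSK-LSD1 in WT cells. Of the 99 genes tested, 51 fell, 4 rose and 44 did not pass the test (edgeR, adjusted p under 0.05 over all genes tested). Over all 12864 genes tested, 22.5% were called lower and 22.7% higher, or 45.2% in either direction. Among the respiratory chain genes 51.5% were lower and 4.04% higher. The median log2 fold change was -0.27 over the 99 genes and 0.01 over all genes tested. A change of 2-fold or more was seen in 3 of the 99 genes, against 13.1% of all genes tested. In bulk RNA, fewer cells of a type and less RNA per cell cannot be told apart.

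The groups did not overlap, with every WT GSK-LSD1 library below every WT DMSO library, for 52 of the 99 genes, against 25.4% of all genes tested. In the other direction, 3 of the 99 genes were separated, against 26.5% of all genes. By complex, 22 of 45 genes of complex I, 1 of 4 of complex II, 6 of 9 of complex III, 8 of 22 tested of complex IV and 14 of 19 of complex V fell. The 4 that rose were NDUFB11 in complex I and COX7A2L, COX15 and COX6B1 in complex IV.

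**Figure D1:**
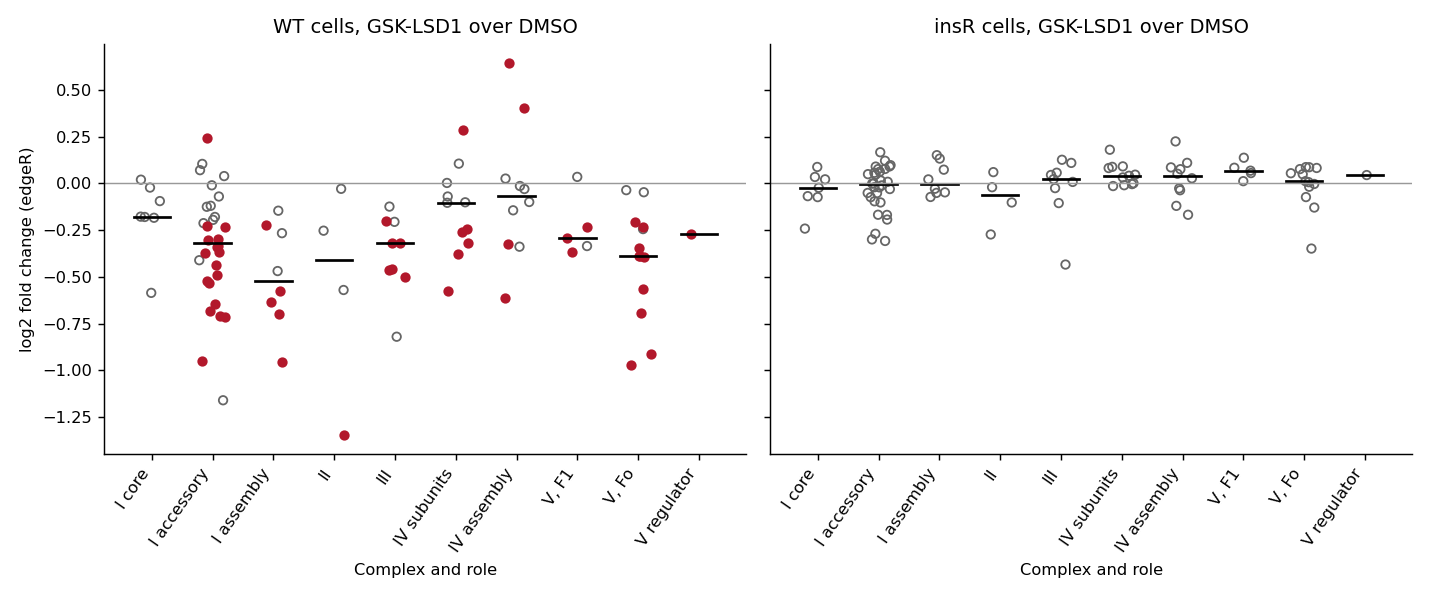
Log2 fold change of GSK-LSD1 over DMSO for each tested gene, by complex and role, in WT cells (left panel) and insR cells (right panel). Points are genes, filled where the adjusted p was under 0.05, black lines are medians, and COX6B2 is left out because it had 0 counts in WT GSK-LSD1. In WT cells most points lie below 0, and in insR cells no point shown is filled.

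Summed over the structural subunits of a complex, the level was lower in WT GSK-LSD1 than in WT DMSO for all 5 complexes, and least so for complex IV. Complex I summed to 5077, 4658 and 4974 CPM in the WT GSK-LSD1 libraries, against 5748, 6051 and 6271 CPM in WT DMSO, a ratio of means of 0.814. The ratio was 0.812 for complex II, 0.783 for complex III and 0.812 for complex V, and in each of these the groups did not overlap. In complex II only 1 of the 4 genes, SDHB, was called lower. Complex IV had 2988, 2938 and 3158 CPM in WT GSK-LSD1, against 3124, 3413 and 3195 CPM in WT DMSO, a ratio of 0.934 with overlapping libraries. In insR cells the ratios of GSK-LSD1 over DMSO were 1.009 for complex I, 0.973 for complex II, 0.996 for complex III, 1.031 for complex IV and 1.015 for complex V. These sums weigh each gene by its reads and were not tested. They hold only genes of the symbol rule, so the complex III subunit CYC1 is not in them.

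**Figure D2:**
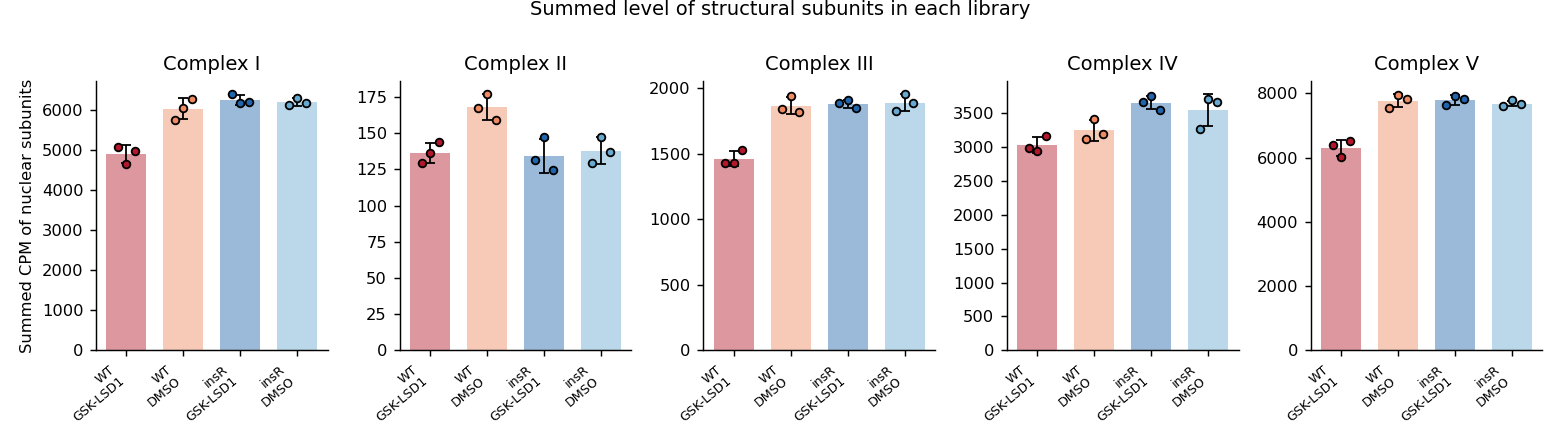
Summed CPM of the structural subunits of each complex among the 107 genes. Bars are means, error bars are SD (n = 3) and points are libraries. The WT GSK-LSD1 points lie below all WT DMSO points in every complex but complex IV.

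Complex I genes are given by role. None of the 7 core subunits, which carry the flavin, the iron-sulfur clusters and the ubiquinone site, passed the test, with values between -0.59 for NDUFV2 (adjusted p = 0.17) and 0.02 for NDUFS8. Of the 30 accessory subunits, which surround the core, 17 fell and 1 rose, with a median of -0.32. Of the 8 assembly factors 5 fell, with a median of -0.52. The difference between these classes was not tested.

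NDUFC1, an accessory subunit of the membrane arm, was at 32.9, 54.9 and 46.5 CPM in WT GSK-LSD1, against 95.9, 96.2 and 67.2 CPM in WT DMSO. The groups did not overlap, and NDUFC1 fell by 0.95 on the log2 scale (SE 0.16, adjusted p = 0.000234). NDUFA6, an accessory subunit of the LYR-motif family, had 121, 101 and 117 CPM in WT GSK-LSD1, against 169.9, 192 and 194 CPM in WT DMSO (log2 fold change -0.72, SE 0.08, adjusted p = 2.26e-07). All treated libraries again lay below all untreated ones. NDUFB9, the complex I gene with the most reads, was at 584, 442 and 575 CPM under GSK-LSD1, against 715, 712 and 887 CPM in DMSO, and fell by 0.53 (adjusted p = 0.000164).

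NDUFB6 was at 6.62, 10.9 and 11.7 CPM in WT GSK-LSD1, against 20.0, 18.5 and 10.2 CPM in WT DMSO. The groups overlapped, and the call (log2 fold change -0.71, adjusted p = 0.0205) was lost without WT DMSO replicate 1 (adjusted p = 0.0831), without WT DMSO replicate 2 (0.0838) or without WT GSK-LSD1 replicate 1 (0.0758), over a range of 0.00041 to 0.0838 for all alternatives. NDUFB3 was lower by 1.16 but did not pass (adjusted p = 0.131). Its libraries were at 2.84, 9.60 and 5.50 CPM under GSK-LSD1 and at 17.6, 15.3 and 6.43 CPM in DMSO. WT GSK-LSD1 replicate 1 and WT DMSO replicate 3 were the lowest libraries of their groups for NDUFC1, NDUFB6 and NDUFB3, and also for SDHB, SDHC, UQCRH, COX17 and ATP5MK; what moved these genes together was not tested.

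NDUFAF4, a complex I assembly factor, was at 15.7, 14.6 and 14.1 CPM in WT GSK-LSD1, against 27.2, 29.1 and 29.1 CPM in WT DMSO (log2 fold change -0.95, SE 0.13, adjusted p = 1.44e-06). The spread within each group was small, with an SD of 0.836 and 1.09 CPM. NDUFAF2, a factor of late assembly, had 23.8, 17.5 and 22.2 CPM under GSK-LSD1, against 27.7, 37.9 and 37.5 CPM in DMSO, and fell by 0.70 (adjusted p = 0.000485). NDUFAF8, NDUFAF1 and NDUFAF3 fell by 0.64, 0.58 and 0.22, while NDUFAF5 (-0.47), NDUFAF6 (-0.15) and NDUFAF7 (-0.27) did not pass.

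The increase in complex I was weak. NDUFB11 was at 167, 135 and 160.3 CPM in WT GSK-LSD1, against 116, 129 and 146 CPM in WT DMSO. The groups overlapped, and the call (log2 fold change 0.24, adjusted p = 0.0379) was lost in 10 of 20 alternatives, among them DESeq2 (adjusted p = 0.0576) and leaving out any of 7 libraries: WT DMSO replicate 1 (0.246) and replicate 2 (0.122), WT GSK-LSD1 replicates 1 (0.143) and 3 (0.135), insR DMSO replicate 2 (0.0535), insR GSK-LSD1 replicate 1 (0.0537) and insR GSK-LSD1 replicate 2 (0.0596). Without WT DMSO replicate 1 the log2 fold change was 0.15.

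Complex II has 4 subunits and no mitochondrially encoded one. SDHB, the iron-sulfur subunit, was at 5.67, 21.9 and 17.8 CPM in WT GSK-LSD1, against 42.5, 48.6 and 25.4 CPM in WT DMSO. The groups did not overlap, but each spread widely, and the log2 fold change of -1.34 had an SE of 0.40 (adjusted p = 0.0237). The call was lost without WT DMSO replicate 1 (adjusted p = 0.0613), without WT DMSO replicate 2 (0.0798), with only the WT groups in the fit (0.0945) and without the filter on low counts (0.0533), over a range of 0.00126 to 0.0945. SDHA, the flavoprotein subunit, had 103, 88.3 and 99.2 CPM under GSK-LSD1, against 89.7, 96.3 and 111 CPM in DMSO (log2 fold change -0.03, adjusted p = 0.834). The membrane anchors SDHC (-0.25, adjusted p = 0.196) and SDHD (-0.57, adjusted p = 0.225) did not pass either. SDHD was at 2.50 to 3.97 CPM in WT GSK-LSD1 and 3.39 to 5.09 CPM in WT DMSO, so it was measured on few reads.

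In complex III, which contains cytochrome b from the mitochondrial genome, 6 of the 9 genes under the symbol rule fell and none rose. UQCRFS1, the Rieske iron-sulfur protein, was at 108, 119 and 134 CPM in WT GSK-LSD1, against 164, 181 and 168 CPM in WT DMSO, and fell by 0.50 (SE 0.09, adjusted p = 4.96e-05). UQCRH, the hinge protein, was at 389, 444 and 465 CPM under GSK-LSD1, against 628, 633 and 532 CPM in DMSO, with a log2 fold change of -0.46. In both genes all treated libraries lay below all untreated ones. UQCR10 fell by 0.46, UQCRC1 and UQCRQ by 0.32 each, and UQCRB by 0.20, while UQCR11 (-0.21) and UQCRC2 (-0.12) did not pass.

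In complex IV 8 genes fell and 3 rose of 22 tested, or 36.4% and 13.6%, against 22.5% and 22.7% of all genes tested. Of its 12 tested subunits 6 fell and 1 rose. COX7B, COX6C, NDUFA4, COX6A1 and COX7A2 were among the lower subunits, at -0.57, -0.38, -0.32, -0.26 and -0.25. NDUFA4 is a complex IV subunit despite its name. The NDUFA4 call was lost with upper-quartile scaling (adjusted p = 0.0644) and without WT DMSO replicate 2 (0.156), WT GSK-LSD1 replicate 1 (0.139) or WT GSK-LSD1 replicate 2 (0.0536). The COX7A2 call was lost with upper-quartile scaling (adjusted p = 0.102), with DESeq2 (0.0559), with limma-voom (0.0515), and without WT GSK-LSD1 replicate 1 (0.102), WT GSK-LSD1 replicate 2 (0.148), WT DMSO replicate 2 (0.122) or WT DMSO replicate 3 (0.0645). The COX6A1 call was lost without WT DMSO replicate 2 (adjusted p = 0.0656). COX4I1, COX5A, COX5B, COX7C and COX8A lay between -0.10 and 0.11 and did not pass.

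Several complex IV subunits exist as isoforms that differ between tissues. The muscle-type or lung-type isoforms COX4I2, COX6A2 and COX7A1, and COX8C, had 0 counts throughout, while their general partners COX4I1, COX6A1, COX7A2 and COX8A were present in every library. The pair COX6B1 and COX6B2 was the exception, since both were detected and they moved in opposite directions in WT cells. COX6B1, the general form, was at 652, 593 and 651 CPM in WT GSK-LSD1, against 494, 553 and 509.6 CPM in WT DMSO (log2 fold change 0.28, SE 0.08, adjusted p = 0.00365). COX6B2, known as the testis form, had 0 counts in the 3 WT GSK-LSD1 libraries, against 14, 10 and 20 counts (2.46, 1.34 and 3.57 CPM) in WT DMSO. A count of 0 allows up to 0.563, 0.597 and 0.313 CPM in these libraries. Against 3 counts over the group, and with the WT DMSO counts taken as exact, COX6B2 was at least 15.9-fold lower under GSK-LSD1 (adjusted p = 2.80e-06). It passed the filter on low counts through the insR libraries, and not with the WT groups alone.

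The promoters of this pair, from 250 bases before to 50 after the annotated start (RefSeq, GRCh38.p14), are shown because the pair responded in opposite directions. COX6B1 lies at chr19:35648073-35648372 on the plus strand and COX6B2 at chr19:55354670-55354969 on the minus strand, both written in the direction of transcription. Capitals mark CCGGAAG, a core of sites for ETS factors such as GABP, in COX6B1, and GGGCGG, a core of SP1 sites, in COX6B2, each found on the opposite strand.
COX6B1: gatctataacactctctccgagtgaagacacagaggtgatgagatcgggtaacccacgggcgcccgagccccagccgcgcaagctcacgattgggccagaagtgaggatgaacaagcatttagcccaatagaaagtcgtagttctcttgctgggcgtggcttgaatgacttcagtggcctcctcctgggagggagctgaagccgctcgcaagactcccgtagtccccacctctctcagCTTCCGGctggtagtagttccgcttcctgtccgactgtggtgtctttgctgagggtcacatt
COX6B2: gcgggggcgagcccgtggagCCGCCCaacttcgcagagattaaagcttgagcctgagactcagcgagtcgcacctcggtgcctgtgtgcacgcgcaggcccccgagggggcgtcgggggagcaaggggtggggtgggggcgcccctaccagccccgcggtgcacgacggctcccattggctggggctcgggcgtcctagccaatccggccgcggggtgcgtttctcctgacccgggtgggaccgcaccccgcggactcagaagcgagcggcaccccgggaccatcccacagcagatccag

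Among the 10 complex IV assembly genes 2 rose and 2 fell, or 20.0% each way. Neither share stood above the 22.7% higher and 22.5% lower of all genes tested. COX7A2L, which joins complexes III and IV in supercomplexes, was at 108, 144 and 152 CPM in WT GSK-LSD1, against 84.97, 94.0 and 79.1 CPM in WT DMSO. The groups did not overlap, and COX7A2L rose by 0.64 (SE 0.13, adjusted p = 0.000547). COX15, a haem A synthase, had 30.4, 41.5 and 37.3 CPM under GSK-LSD1, against 25.1, 30.1 and 27.1 CPM in DMSO (log2 fold change 0.40, adjusted p = 0.0196). The COX15 call was lost without WT GSK-LSD1 replicate 2 (adjusted p = 0.107), WT GSK-LSD1 replicate 3 (0.0641) or WT DMSO replicate 1 (0.0959). COX17, a copper chaperone, was at 31.9, 48.2 and 48.1 CPM under GSK-LSD1, against 64.6, 75.3 and 57.3 CPM in DMSO, and fell by 0.62 (adjusted p = 0.00101). COX20 fell by 0.32, and COX10, COX11, COX14, COX16, COX18 and COX19 did not pass.

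In complex V, 14 of 19 genes fell and none rose, 3 of 5 in the catalytic F1 part and 10 of 13 in the Fo part. The regulator ATP5IF1, an inhibitor of ATP hydrolysis by the complex, fell by 0.27 (adjusted p = 0.0103). The c ring of Fo is built from copies of a single mature protein that is encoded by ATP5MC1, ATP5MC2 and ATP5MC3, and the 3 genes did not respond alike. ATP5MC3 was at 365, 434 and 428 CPM in WT GSK-LSD1, against 806, 836 and 760.2 CPM in WT DMSO (log2 fold change -0.97, SE 0.08, adjusted p = 1.05e-09). ATP5MC1 was at 226, 188 and 230.0 CPM under GSK-LSD1, against 392, 388 and 437 CPM in DMSO (log2 fold change -0.91, SE 0.09, adjusted p = 5.80e-09). ATP5MC2 was at 567, 554 and 544 CPM under GSK-LSD1, against 554, 578 and 588 CPM in DMSO, with overlapping groups (log2 fold change -0.05, SE 0.07, adjusted p = 0.609). The difference between the 3 genes was not tested.

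The promoters of ATP5MC1 (chr17:48892537-48892836, plus strand) and ATP5MC2 (chr12:53676034-53676333, minus strand; RefSeq, GRCh38.p14) are shown because these genes encode the same mature subunit and their levels moved differently. The ATP5MC1 window held no match to the 4 motifs searched. In ATP5MC2 capitals mark, on the opposite strand, the NRF1 core GCGCATGCG, which starts 41 bases before the transcription start, and the SP1 core GGGCGG.
ATP5MC1: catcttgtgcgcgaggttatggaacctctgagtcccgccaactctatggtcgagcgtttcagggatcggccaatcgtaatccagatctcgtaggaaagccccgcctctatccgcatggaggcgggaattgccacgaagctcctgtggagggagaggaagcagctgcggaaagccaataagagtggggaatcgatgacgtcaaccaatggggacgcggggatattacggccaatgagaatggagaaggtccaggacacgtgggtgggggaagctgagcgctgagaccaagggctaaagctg
ATP5MC2: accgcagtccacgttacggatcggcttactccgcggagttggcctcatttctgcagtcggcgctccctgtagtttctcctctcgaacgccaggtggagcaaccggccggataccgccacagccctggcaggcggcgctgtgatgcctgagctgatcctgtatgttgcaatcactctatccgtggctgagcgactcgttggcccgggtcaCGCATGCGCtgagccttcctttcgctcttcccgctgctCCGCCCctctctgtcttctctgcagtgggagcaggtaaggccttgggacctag

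Of the other Fo genes, 8 fell. ATP5MK was at 48.0, 58.4 and 64.7 CPM in WT GSK-LSD1, against 101, 104 and 72.9 CPM in WT DMSO (log2 fold change -0.69, adjusted p = 0.0244). ATP5PD, the d subunit of the peripheral stalk, fell by 0.56, ATP5MF by 0.40, ATP5PO and ATP5ME by 0.39, ATP5PF by 0.35, ATP5PB by 0.23 and ATP5MJ by 0.21. ATP5MG, subunit g, was at 1774, 1474 and 1711 CPM under GSK-LSD1, against 1531, 1709 and 1849 CPM in DMSO, and did not pass (-0.04, adjusted p = 0.757), nor did ATP5MGL, at 2.14 to 4.92 CPM under GSK-LSD1 and 3.08 to 4.29 CPM in DMSO (-0.24, adjusted p = 0.611). In F1, ATP5F1C, ATP5F1B and ATP5F1E fell by 0.36, 0.29 and 0.23, while ATP5F1A (-0.34, adjusted p = 0.209) and ATP5F1D (0.03) did not pass.

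**Figure D3:**
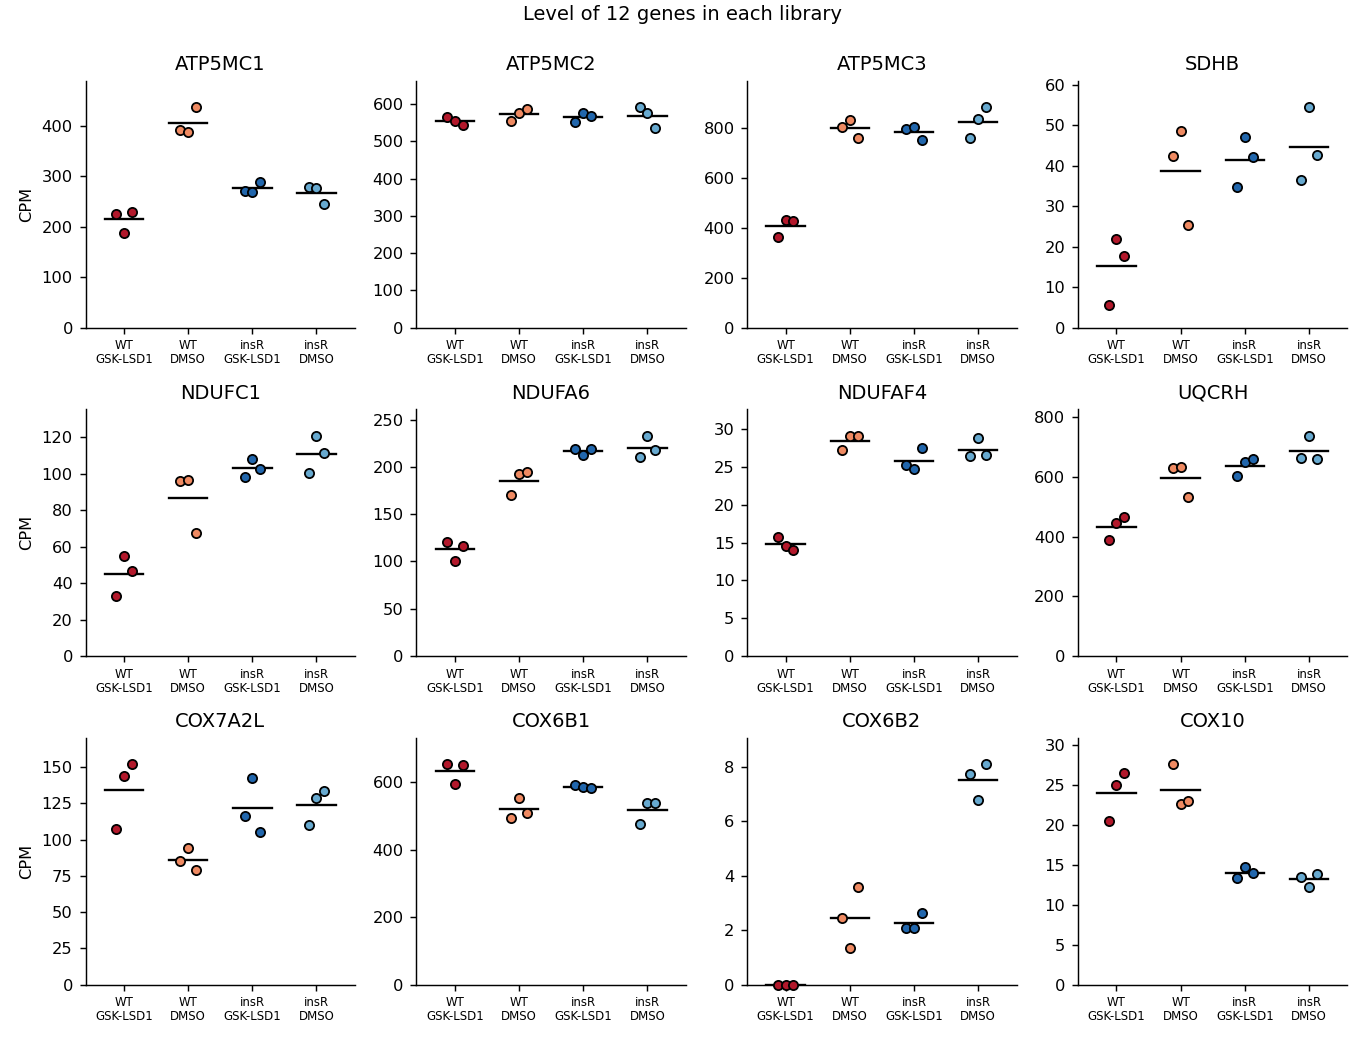
CPM of 12 genes in each library, by group, with black lines for means. ATP5MC1 and ATP5MC3 are low in WT GSK-LSD1 while ATP5MC2 is level, COX6B2 is at 0 in WT GSK-LSD1, and COX10 is low in both insR groups.

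The same drug exposure was then examined in insR cells. Of the 99 genes, 1 fell, none rose and 98 did not pass, against 0.264% called lower and 0.241% higher, 0.505% in all, of all genes tested. The groups did not overlap for 6 of the 99 genes with insR GSK-LSD1 above and for 4 with it below, against 7.21% and 6.44% of all genes. At an unadjusted p under 0.05 there were 2 of the 99 genes, COX6B2 and COX6B1, against 7.74% of all genes tested. The median log2 fold change was 0.01 over the 99 genes and -0.001 over all genes tested. COX6B2 was at 2.10, 2.07 and 2.63 CPM in insR GSK-LSD1, against 7.72, 6.76 and 8.09 CPM in insR DMSO, with a log2 fold change of -1.71 (SE 0.32, adjusted p = 0.0111). The groups did not overlap, but the call was lost without insR DMSO replicate 1 (adjusted p = 0.0661), insR GSK-LSD1 replicate 1 (0.0927) or insR GSK-LSD1 replicate 2 (0.0640), over a range of 0.000264 to 0.0927. ATP5MC1 was at 271, 269 and 289 CPM in insR GSK-LSD1, against 280.0, 276 and 245 CPM in insR DMSO, and ATP5MC3 at 797, 807 and 755 CPM against 761, 838 and 884 CPM. NDUFAF4 was at 25.3, 24.7 and 27.6 CPM, against 26.4, 28.9 and 26.5 CPM, again with overlapping groups.

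The 51 genes that fell in WT cells had a median log2 fold change of -0.39 there and of 0.01 in insR cells, where 25 of the 51 lay below 0. The difference between the responses (insR minus WT) was tested in its own right, although it shares the WT libraries with the WT response. It was called above 0 for 30 of the 99 genes and below 0 for 1, against 13.3% and 11.8% of all genes tested (25.1% either way), with a median of 0.31 over the 99 genes. By complex, 12 of 45 genes of complex I, 0 of 4 of complex II, 5 of 9 of complex III, 5 of 22 of complex IV and 8 of 19 of complex V were called above 0. ATP5MC1 and ATP5MC3 had differences of 0.96 (SE 0.12, adjusted p = 2.48e-06) and 0.89 (SE 0.12, adjusted p = 3.42e-06), NDUFAF4 0.88 (adjusted p = 0.000606), NDUFC1 0.85 (0.0121) and NDUFA12 0.73 (0.000235). COX7A2L was called below 0, at -0.67 (SE 0.18, adjusted p = 0.0113). SDHB did not pass this test (1.24, SE 0.54, adjusted p = 0.136), nor did COX6B1 (-0.11, adjusted p = 0.516).

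The next comparison set insR against WT cells, both kept in DMSO. Of the 99 genes 13 were higher and 9 lower in insR, or 13.1% and 9.09%, against 14.5% and 15.6% of all genes tested, 30.1% in either direction. Neither share stood above the background. The genotypes did not overlap for 17 genes with insR above and 11 with insR below, against 20.9% and 21.5% of all genes. The median log2 fold change was 0.03. This comparison shares the WT DMSO libraries with the WT response.

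Among the higher genes, ATP5MJ, a small Fo-associated protein, was at 1421, 1372 and 1230.0 CPM in insR DMSO, against 873, 831 and 853 CPM in WT DMSO (log2 fold change 0.65, SE 0.08, adjusted p = 5.28e-07). The groups were far apart. NDUFAF3, an assembly factor that binds NDUFAF4, was at 83.0, 85.6 and 81.2 CPM in insR DMSO, against 56.5, 63.6 and 55.5 CPM in WT DMSO (0.50, adjusted p = 7.08e-05). NDUFB5 had 49.7, 71.8 and 62.7 CPM in insR, against 42.5, 44.6 and 29.5 CPM in WT (0.64, adjusted p = 0.00823). COX7A2L (0.52), COX17 (0.50), COX7C (0.42), ATP5PD (0.41), COX7A2 (0.35) and COX6B2 (1.65, adjusted p = 0.000286) were also higher. COX6B2 passed the filter on low counts through the insR libraries, where it was higher, so its call is not independent of the filter. NDUFB6 was called higher (0.62, adjusted p = 0.0356), a call lost without WT DMSO replicate 3 (log2 fold change 0.39, adjusted p = 0.135) or insR DMSO replicate 1 (0.0567), 2 (0.0770) or 3 (0.103), and the COX7A2 call was lost without insR DMSO replicate 2 (0.0556).

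Among the lower genes, COX10, which makes haem O for complex IV, was at 13.4, 12.2 and 13.9 CPM in insR DMSO, against 27.6, 22.6 and 23.04 CPM in WT DMSO (log2 fold change -0.89, SE 0.15, adjusted p = 3.72e-05). Every insR library lay well below every WT library. ATP5MG was at 1069, 1042 and 1195 CPM in insR, against 1531, 1709 and 1849 CPM in WT (-0.62, adjusted p = 3.31e-06). SDHA was at 67.6, 62.4 and 66.1 CPM, against 89.7, 96.3 and 111 CPM (-0.60, adjusted p = 5.68e-05), and ATP5MC1 at 280.0, 276 and 245 CPM, against 392, 388 and 437 CPM (-0.60, adjusted p = 4.44e-06). For all of these the genotypes did not overlap. NDUFAF8 (-0.44) and ATP5IF1 (-0.39) were lower as well. The calls of NDUFA9 (-0.30, adjusted p = 0.0259) and COX16 (-0.28, adjusted p = 0.0383) were lost without WT DMSO replicate 3, at -0.18 (adjusted p = 0.196) and -0.15 (adjusted p = 0.294). NDUFA9 was also lost without insR DMSO replicate 2 (adjusted p = 0.0766) or 3 (0.1197), and COX16 with DESeq2 (0.0586), with limma-voom (0.0537) and without insR DMSO replicate 1 (0.1204) or 2 (0.132) or insR GSK-LSD1 replicate 2 (0.0511).

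By chromosome, 3 of the 5 tested genes on chromosome 17 were lower and 1 was higher in insR DMSO, where 26.9% of 750 tested genes of that chromosome were lower. The lower genes there were COX10, ATP5MC1 and NDUFAF8. On chromosome 11, where 24.9% of 727 tested genes were lower, 1 of 7 was lower, ATP5MG. None of the 99 genes lies on chromosome 13, where 60.8% of 227 tested genes were lower in insR.

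Under GSK-LSD1 the genotypes were further apart for these genes. Of the 99 genes 56 were higher and 5 lower in insR than in WT cells, against 27.0% and 27.5% of all genes tested (54.5% either way), with a median log2 fold change of 0.35 over the 99 genes and -0.01 over all genes tested. The insR libraries lay above all WT libraries for 61 of the 99 genes and below them for 5, against 29.7% and 30.4% of all genes. SDHB was at 34.8, 47.1 and 42.3 CPM in insR GSK-LSD1, against 5.67, 21.9 and 17.8 CPM in WT GSK-LSD1 (log2 fold change 1.42, SE 0.40, adjusted p = 0.0153). NDUFC1 (1.20), COX17 (1.08), NDUFB6 (1.03), ATP5MK (0.97), ATP5MC3 (0.94) and NDUFA6 (0.94) were higher in insR, all with adjusted p of 0.00318 or less. COX6B2 had 40 counts over the insR GSK-LSD1 libraries and 0 over the WT GSK-LSD1 libraries (adjusted p = 2.31e-06). With the 40 counts taken as exact, it was at least 15.5-fold higher in insR. Since COX6B2 passed the filter on low counts through the insR libraries, this call too is not independent of the filter. NDUFB3 was called higher (1.81, adjusted p = 0.0201), a call lost without WT GSK-LSD1 replicate 1 (adjusted p = 0.0650) or 3 (0.0713).

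The 5 lower genes under GSK-LSD1 were COX10, SDHA, ATP5MG, COX19 and COX4I1. COX10 was at 13.4, 14.7 and 13.9 CPM in insR GSK-LSD1, against 20.4, 25.0 and 26.5 CPM in WT GSK-LSD1 (log2 fold change -0.79, adjusted p = 8.33e-05). SDHA (-0.59) and ATP5MG (-0.51) were lower by about as much as in DMSO, and none of the 3 genes passed the test of either drug response. ATP5MC1 was higher in insR under GSK-LSD1 (0.36, adjusted p = 0.000991), at 271, 269 and 289 CPM, against 226, 188 and 230.0 CPM in WT, the opposite direction to DMSO. The calls of COX19 (-0.32, adjusted p = 0.0253) and COX4I1 (-0.25, adjusted p = 0.0276) were lost without WT GSK-LSD1 replicate 1 (0.0859 for COX19 and 0.123 for COX4I1), WT GSK-LSD1 replicate 3 (0.0970 and 0.101) or insR GSK-LSD1 replicate 3 (0.111 and 0.130), and COX4I1 also without insR GSK-LSD1 replicate 2 (0.124).

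**Figure D4:**
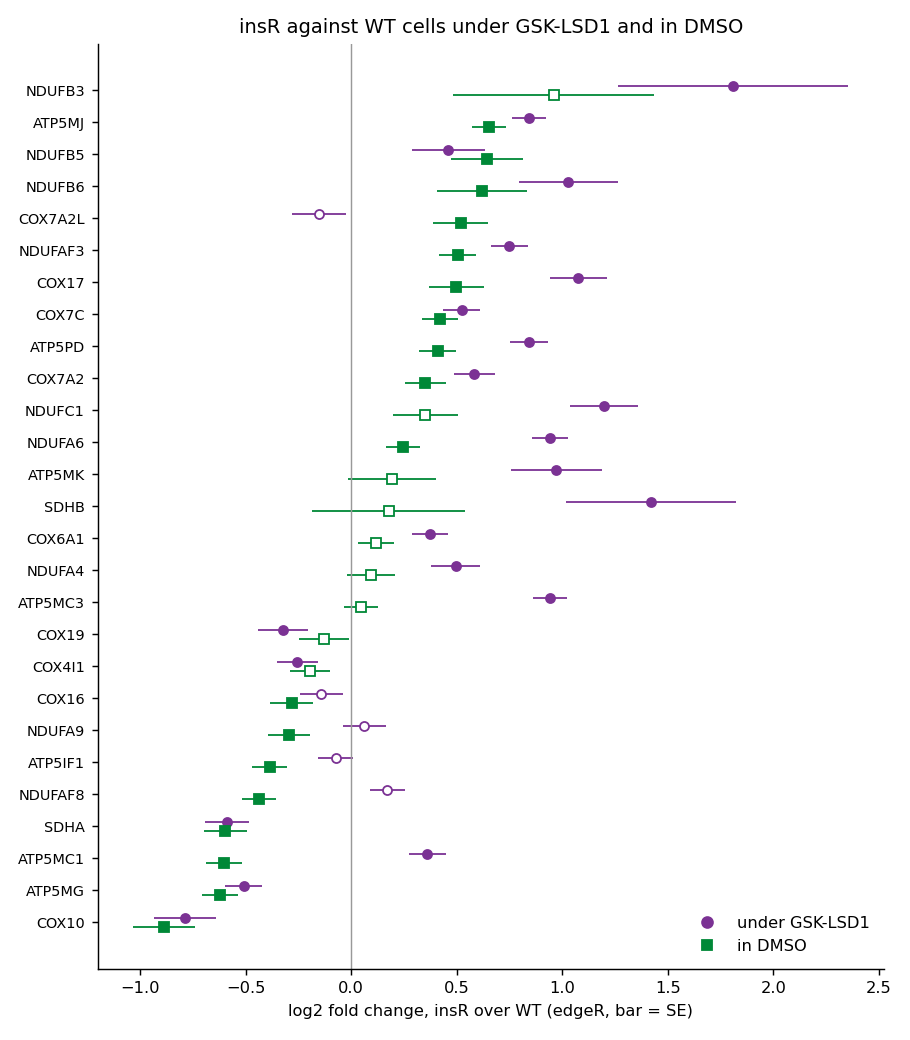
Log2 fold change of insR over WT cells under GSK-LSD1 (circles) and in DMSO (squares) for the named genes, with SE bars and filled symbols where the adjusted p was under 0.05. COX6B2 is left out because it had 0 counts in WT GSK-LSD1. COX10, SDHA and ATP5MG lie below 0 in both, and ATP5MC1 lies on opposite sides of 0.

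Nuclear genes that work with the respiratory chain were listed apart from it. Over all genes tested, GSK-LSD1 called 22.5% lower and 22.7% higher in WT cells. Of 9 other electron carriers 5 fell and 1 rose, with a median log2 fold change of -0.41. CYCS, cytochrome c, averaged 119.5 ± 11.03 CPM in WT GSK-LSD1 and 306 ± 36.1 CPM in WT DMSO (SD, n = 3 each) and fell by 1.36 (adjusted p = 5.47e-11). CYC1, a cytochrome subunit of complex III that the symbol rule leaves out, fell by 0.41. ETFA, an electron transfer flavoprotein subunit, fell by 0.53. SQOR, a sulfide oxidoreductase, rose by 1.37. Of 35 tested assembly factors outside the symbol rule 20 fell and 3 rose. LYRM7 and SCO1, factors of complexes III and IV, fell by 0.62 each and TMEM126B, a complex I factor, by 0.70. Of 17 genes of the TCA cycle and pyruvate dehydrogenase 12 fell and 1 rose. SUCLG2, a subunit of succinyl-CoA ligase, averaged 11.2 CPM in WT GSK-LSD1 and 33.5 CPM in WT DMSO (log2 fold change -1.59, adjusted p = 3.25e-09), while DLAT, of pyruvate dehydrogenase, and the fumarate hydratase FH fell by 0.91 and 0.94.

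Of 16 regulators of mitochondrial gene expression 7 fell and 1 rose in WT cells, where 22.5% of all genes tested fell and 22.7% rose. TFAM, the packaging and transcription factor of mitochondrial DNA, averaged 250.5 ± 5.90 CPM in WT GSK-LSD1 and 366 ± 11.4 CPM in WT DMSO and fell by 0.55 (adjusted p = 9.20e-07). SLIRP, an RNA-binding protein, fell by 0.81, and the PGC-1 family coactivators PPARGC1B and PPRC1 fell by 0.86 and 0.71, while GABPA, a subunit of the ETS factor GABP, rose by 0.50. NRF1 (0.01) and YY1 (-0.12) did not pass. Among the 13 mRNAs of the mitochondrial genome 2 fell and 1 rose, with a median of -0.06. MT-ND6, the only one read from the light strand, fell by 1.55 (adjusted p = 0.000189). MT-ND4L fell by 0.23 and MT-CO2 rose by 0.28. Since no source used here gives the strand setting of the counting, reads of MT-ND6 and of the genes opposite it cannot be told apart. In the insR response none of these 5 lists had a gene called by edgeR, against 0.505% of all genes tested. At that share, lists of this size may hold no call.

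**Figure D5:**
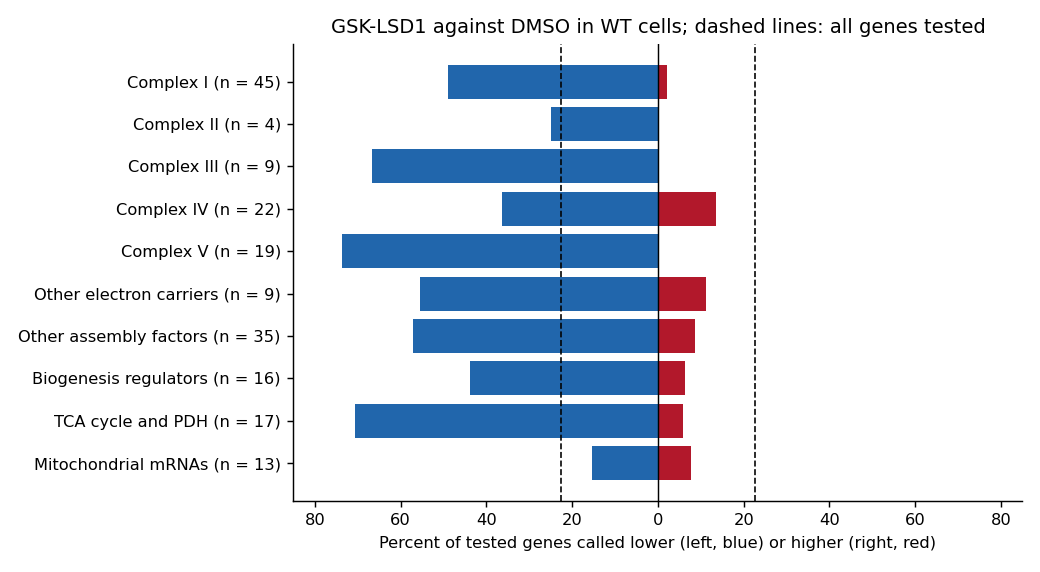
Percent of the tested genes of each list called lower (left of 0, blue) or higher (right of 0, red) by GSK-LSD1 in WT cells. Dashed lines are the values over all genes tested, 22.5% lower and 22.7% higher. Complexes III and V and the TCA cycle list reach furthest to the left, and the mitochondrial mRNAs stay left of 0 by less than the background.

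Short motifs of factors known for respiratory chain promoters were counted on both strands of RefSeq promoters (GRCh38.p14), which were matched for 88 of the 107 genes. The NRF1 core GCGCATGCG was in 14.8% of the 88 promoters and in 2.76% of 15843 protein-coding promoters. The ETS core CCGGAAG was in 27.3% and 14.2%, the YY1 core ATGGCGGC in 14.8% and 4.49%, and the SP1 core GGGCGG in 56.8% and 58.5%. Split by the WT response, the NRF1 core was in 18.6% of 43 promoters of genes that fell and in 13.9% of 36 promoters of genes that did not pass, the ETS core in 23.3% and 33.3%, the YY1 core in 11.6% and 19.4%, and the SP1 core in 55.8% and 63.9%. A match is a run of letters and not evidence of a bound site, and these shares were not tested.

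Other measures moved with the WT response. The erythroid markers HBG1, HBA1 and ALAS2 fell by 3.05, 3.50 and 1.45 on the log2 scale. HBG1 was at 127 to 146 CPM in WT GSK-LSD1 and 993 to 1240 CPM in WT DMSO, against 1949 to 2026 CPM in insR GSK-LSD1 and 2380 to 2684 CPM in insR DMSO. The 4 megakaryocyte markers summed to 1078 to 1297 CPM in WT GSK-LSD1 and 700.2 to 788 CPM in WT DMSO, with ITGA2B higher by 0.68 and GP9 lower, at -1.56. Of the 6 haematopoietic markers, PTPRC, CD34 and RUNX1 rose by 1.13, 1.24 and 1.31, KIT and GATA1 fell by 0.68 and 0.63, and GATA2 (0.08) did not pass. The 4 monocyte markers summed to 179 to 208 CPM in WT GSK-LSD1 and 90.2 to 112 CPM in WT DMSO, with LYZ and ITGAM higher in WT GSK-LSD1 (log2 fold changes 0.62 and 1.80) and CD14 and CSF1R near 0. All genes of the mitochondrial genome, rRNA and tRNA genes included, took 3.97% to 4.54% of reads in WT GSK-LSD1 and 2.93% to 3.55% in WT DMSO. Of the 13 mRNAs among them 1 rose and 2 fell, with a median log2 fold change of -0.06. Reads outside any gene made up 18.4% to 19.5% in WT GSK-LSD1 and 16.3% to 16.7% in WT DMSO. Their part in the results on the respiratory chain genes was not tested.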

How the data were processed

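The 12 libraries, 3 for each of 4 groups of SET-2 cells, were grouped and numbered by the sample titles. The kit (QuantSeq FWD, per the labels) primes polyadenylated RNA, so reads lie near 3′ ends. The submitters' processing notes name bcl2fastq 2.2, STAR 2.6.0c, HTSeq 0.9.1, DESeq2 and the build hg19. The annotation release and strand setting were not given in the sources used here, which leaves values of overlapping genes uncertain. The authors deposited raw read counts for each gene. Their normalized table was not used here.

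Gene symbols were matched by Ensembl identifier (52181 of 63677 genes), and gene types and chromosomes came from GENCODE annotation of a later build, so no gene coordinates were taken from it. Rows of pseudogenes of the same families held 0.149% as many reads as the 107 genes. By library, 57.9% to 62.6% of all counts were set aside as matching several places and went to no gene. The small pseudogene share therefore cannot show how many reads the 107 genes lost to close copies, and which genes lost reads was not tested. Rows that name no gene were left out of library sizes, and reads outside any gene made up 13.7% to 19.5% by library.

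Counts were filtered with filterByExpr, scaled by TMM and tested by quasi-likelihood (robust setting) with edgeR 4.0.16 under R 4.3.3, in 1 model of all 12 libraries by group. P-values were adjusted by the Benjamini-Hochberg method across 12864 genes, and a gene was called below 0.05. CPM scale reads to the TMM-scaled library total. A count of 0 allows up to 3 counts, for counting error only, since reads carry no molecular identifiers.

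The genes named were, per comparison, those called with 10 CPM or more in the higher group's mean and with the largest changes (up to 8 per direction, or 5 for the insR response and the difference in response), the gene with the most reads of each complex, tissue-type isoforms and the SDH genes, and up to 3 genes of lowest p per other list. Other genes of a class or list given beside its counts, such as UQCRFS1 or SQOR, were named after their values were seen. The genes, lists and tests were chosen with earlier results of these data known. Alternatives were other scalings and filters, DESeq2 1.42.0, limma-voom (limma 3.58.1), a replicate block, only the groups compared, a threshold of 0.01 and each library left out. The fits were tested on simulated counts with 200 genes changed, each 2-fold or more. That setting covers neither the smaller changes of most genes here nor the 45.2% of genes called in the WT response. Replicate numbers were not taken as pairs, except in the replicate block. A marker of the lists is not reported here.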

Additional observations from a re-analysis of the deposited data

Results flagged for a closer look

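The difference between the responses to GSK-LSD1 (insR minus WT, edgeR interaction, log2) passed the test for 14 of the genes picked by the stated naming rule, which flagged them. Over all 99 genes it was called above 0 for 30 and below 0 for 1. Among the complex I genes, the difference was 0.88 for NDUFAF4, 0.85 for NDUFC1, 0.73 for NDUFA12, 0.70 for NDUFA6, 0.65 for NDUFAF2, 0.61 for NDUFAF8 and 0.53 for NDUFB9. In complex III it was 0.36 for UQCRH, and in complex IV it was 0.58 for COX17 and -0.67 for COX7A2L. In complex V it was 0.96 for ATP5MC1, 0.89 for ATP5MC3 and 0.43 for ATP5PD. The fitted difference of 5.25 for COX6B2 rests on a group with 0 counts, depends on the prior count and is not a measure of size; limma-voom gave 3.18.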

How the results depend on the processing

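Over all alternatives, 60 calls of named genes were recomputed, with 1252 values. No value of these named calls changed sign and 75 were no longer called. At the 0.05 threshold 15 calls were lost by some alternative and 5 by one that kept all libraries. At an adjusted p under 0.01, the WT response had 2 genes higher and 31 lower, the insR response 0 lower, insR against WT under GSK-LSD1 3 lower, and the difference in response 15 above 0 and 0 below. Leaving out 1 library at a time gave 2 to 4 genes higher and 36 to 51 lower in the WT response, 0 to 1 lower in the insR response, 3 to 5 lower in insR against WT under GSK-LSD1 and 22 to 34 above 0 in the difference. The low ends of the count of WT increases, 2, came without WT DMSO replicate 1 or WT GSK-LSD1 replicate 3, and those of the count lower under GSK-LSD1, 3, without WT GSK-LSD1 replicate 3 or insR GSK-LSD1 replicate 3. For insR against WT in DMSO, leaving out 1 library gave 9 to 15 genes higher and 7 to 10 lower. The median log2 fold change of the 99 genes then ran from -0.017 to 0.042. In the insR response it ran from -0.003 to 0.042, so the sign of both medians depended on single libraries. Other alternatives gave 41 to 53 genes lower in the WT response and 27 to 36 above 0 in the difference. Under other scalings, 0 of 48 summed levels moved by more than 1 SD. COX6B2 could not be tested for the WT response with only the WT groups in the fit, since it did not pass the filter there.

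Libraries of different groups were correlated after each gene's group mean was subtracted from its log2 CPM. On these deviations, same-numbered libraries correlated at a median of 0.03 over 18 pairs, 3 of them over 0.1. Libraries of different numbers had a median of -0.002 over 36 pairs, 5 of them over 0.1. The highest value, 0.29, was between WT DMSO replicate 3 and WT GSK-LSD1 replicate 1. These values do not show pairing by number, but they cannot exclude pairs or batches. With the replicate block, 50 genes were lower in the WT response, 34 were above 0 in the difference, and 0 of the 60 named calls were lost.

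Depth limits the genes of few reads, such as SDHD, NDUFB3 and COX6B2.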
